A study of Mus musculus with 8 samples.

Results

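Spleen cells of Sle1.3 mice, a lupus-prone strain, were compared with those of wild-type (WT) mice on Affymetrix Mouse Gene 1.0 ST arrays, which read whole transcripts with many probes per gene. The comparison took every array that the labels call Wild Type (2 mice) or Sle1.3 (3 mice), which is 5 of the 8 arrays of the series. All 5 mice are given as C57/B6 in strain background. The WT genotype is wild type and that of the other group is Sle1.3, described only as lupus mice. The labels name no treatment of these animals, and no age is used here. Sle1 and Sle3 are names of lupus susceptibility intervals on mouse chromosomes 1 and 7, but the labels do not say which intervals these mice carry or how they were bred. Spleens were digested with collagenase and DNase to single cells, so each array averages over every cell type of the suspension. Both WT mice and Sle1.3 replicate 3 are labelled male, and Sle1.3 replicates 1 and 2 female. Values below are log2 intensities, and a log2 difference is the Sle1.3 mean minus the WT mean.

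The arrays were not equal in scale. The median log2 intensity was 5.87 and 5.83 on the WT arrays and 5.87, 5.89 and 6.17 on those of Sle1.3 replicates 1 to 3. The lowest linear intensity was 4.59 to 5.11 on the first 4 of these and 10.9 on that of Sle1.3 replicate 3. Values of the leading genes are therefore given for each array, and counts also for Sle1.3 replicates 1 and 2 alone. Xist, the transcript that silences an X chromosome in females, was 4.12 and 3.75 in WT and 10.77, 10.68 and 11.90 in Sle1.3. The Y-linked Eif2s3y, Uty and Kdm5d lay between 3.02 and 4.27 in all 3 Sle1.3 mice and between 7.40 and 8.94 in WT. The array of Sle1.3 replicate 3 thus goes against its label of male. By these transcripts every Sle1.3 mouse was female and every WT mouse male, so genotype and sex cannot be told apart in any result below. Markers of the main spleen cell types were bright in both groups. Ms4a1 of B cells lay between 11.05 and 11.30, Cd79a, also of B cells, at 12.34 and 11.80 in WT and 11.49, 11.37 and 11.72 in Sle1.3, Cd3e of T cells between 9.61 and 10.06 and Adgre1 of macrophages between 7.655 and 8.22. The exocrine pancreas markers Cela1 and Cpa1 were dim (4.77 to 6.04), and each lay above both WT mice in every Sle1.3 mouse. Of the stromal markers, Col1a1 was 6.67 and 6.45 in WT and 6.96, 6.91 and 7.47 in Sle1.3 (0.56), Pdgfrb was at 0.26 and Cdh5 at -0.08. Of these markers, Cd79a was lower (-0.64) and Cpa1 higher (0.52) in replicates 1 and 2 alone, and none was called with all 3 mice. The part of pancreas or stroma in the results was not tested.

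In lupus-prone mice the spleen is a site where self-reactive B cells are activated, often in germinal centres with the help of T cells, and where blood cells can be formed outside the bone marrow. Neutrophils carry antimicrobial proteins in granules that are filled in sequence while the cell matures: primary granules first, then secondary and tertiary granules. Transcripts of most granule proteins are made in the precursors and fade before the mature cell leaves for the blood. Receptors such as Cxcr2 mark mature cells.

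Of 14953 genes tested with limma, 495 were higher in Sle1.3 (3.31%) and 637 lower (4.26%) at an adjusted p below 0.05. In Sle1.3 replicates 1 and 2 alone, 769 were higher (5.14%) and 1707 lower (11.4%), and all 1132 calls of the full comparison were among them. Some genes named below without a call were called in replicates 1 and 2 alone. Those that were higher there are Aurka, Cd34, Cd5l, Cdc20, Clec5a, Ctla4, Gbp7, Ifit3, Ifitm6, Kif15, Macrod2, Mcpt8, Mir297b, Psmb9, Slamf6 and Usp17ld. Those that were lower there are Btk, Ccr7, Ebf1, Foxp3, Il1r2, Mtor, Rptor, Slamf8, Smpd2 and Trim13. All 3 Sle1.3 mice lay above both WT mice for 3153 genes (21.1%) and below both for 3667 (24.5%). Those shares are the background for every count of non-overlapping genes that follows. With each array set to the same median, 645 genes were higher and 1956 lower, and the median difference of all genes went from 0.02 to -0.10. Thus the balance of higher and lower counts depends on the scaling. The sign of all 1132 called genes stayed the same. The WT mice carry the test. Without WT replicate 1, 4 genes were higher and 7 lower, among the latter Plk2, Mir142, Mir18 and Myof. Without WT replicate 2, Xist was higher and 3 Y-linked genes lower, and nothing else passed. Apart from those 4 sex-linked genes, every called gene named below lost its call without WT replicate 2, and lists are described by counts and medians without a test of their own. In a mixture of cells, more transcript can mean more cells of a type or more RNA in each cell, and these cannot be told apart here.

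Granule protein transcripts of developing neutrophils held the largest autosomal differences. Camp, which encodes the antimicrobial peptide cathelicidin, was 7.04 and 6.69 in WT against 11.17, 9.38 and 11.27 in Sle1.3 replicates 1 to 3. This is a difference of 3.74 (SE 0.47, adjusted p = 0.0043, limma), or 13.3-fold. The granule calls depend on the variance model: with a trend and robust prior in eBayes the adjusted p of Camp was 0.0543, and 4 of 15 primary and 5 of 20 later granule genes were called in place of 6 and 12. Among named genes Camp, Chil3, Ctsg, Lcn2, Ltf, Ly6g, Ngp, S100a8, S100a9, Clec4d, Ear6 and Prg2 lost their calls there (adjusted p 0.0509 to 0.167, limma), with the differences unchanged. Mmp8, Anxa1, Pglyrp1 and Fcnb lost theirs too. Of the 12 later granule calls this leaves at most Cd177 and Olfm4, so the 5 called with that prior include genes not called in the main fit. Among 15 tested genes of the primary granule list 6 rose and none fell. Ctsg, encoding the serine protease cathepsin G, was 5.66 and 4.997 in WT and 9.48, 7.41 and 9.93 in Sle1.3, a 12.2-fold difference. Elane, neutrophil elastase, was 6.75 and 5.98 in WT and 10.24, 8.75 and 10.42 in Sle1.3. For these genes the groups were well apart, and in each case Sle1.3 replicate 2 was the lowest of the 3 Sle1.3 mice. Mpo, which makes hypochlorous acid in the phagosome, rose by 3.08 (SE 0.45), and Prtn3, proteinase 3, by 2.95 (SE 0.43). Ms4a3, a membrane protein of granulocyte and monocyte progenitors, rose by 2.01, and Fcnb, the lectin ficolin B, by 1.70. The 9 other members ranged from -0.38 for Igfbp4 to 1.40 for Clec5a, and did not pass. Medians over the primary list were 0.71, 0.04 and 1.83 above the WT mean in Sle1.3 replicates 1 to 3, so replicate 2 hardly moved as a list. In all 3 Sle1.3 mice 7 of the 15 lay above both WT mice and 2 below both.

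The later-filled granules followed. Of 20 tested genes 12 rose and none fell, and 17 lay above both WT mice in all 3 Sle1.3 mice. Ltf, the iron-binding lactoferrin of secondary granules, was 6.56 and 5.74 in WT and 10.52, 8.33 and 10.22 in Sle1.3 (difference 3.54, SE 0.53). Ngp, neutrophilic granule protein, was 9.71 and 7.98 in WT and 12.92, 11.21 and 12.71 in Sle1.3 (3.44, SE 0.54). The WT mice stood far apart for Ngp, and the lowest Sle1.3 mouse still lay above both. Lcn2, which withholds siderophore-bound iron from bacteria, rose by 2.87, Chil3, a chitinase-like lectin, by 2.82 and Mmp8, neutrophil collagenase, by 2.56. S100a8 and S100a9, the subunits of the zinc-binding calprotectin, rose by 2.49 and 2.35. Anxa1 (2.01), Pglyrp1 (1.55), Cd177 (1.41) and Olfm4 (1.32) also rose. Members that did not pass included Ifitm6 (1.64), Hp, encoding haptoglobin (1.27), Cybb, the catalytic subunit of the phagocyte oxidase (0.63), and Mmp9, gelatinase B (0.32). The list median was 2.25, 0.59 and 2.06 above the WT mean in Sle1.3 replicates 1 to 3, so the size of the difference varied widely among Sle1.3 mice while its direction did not.

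**Figure D1:**
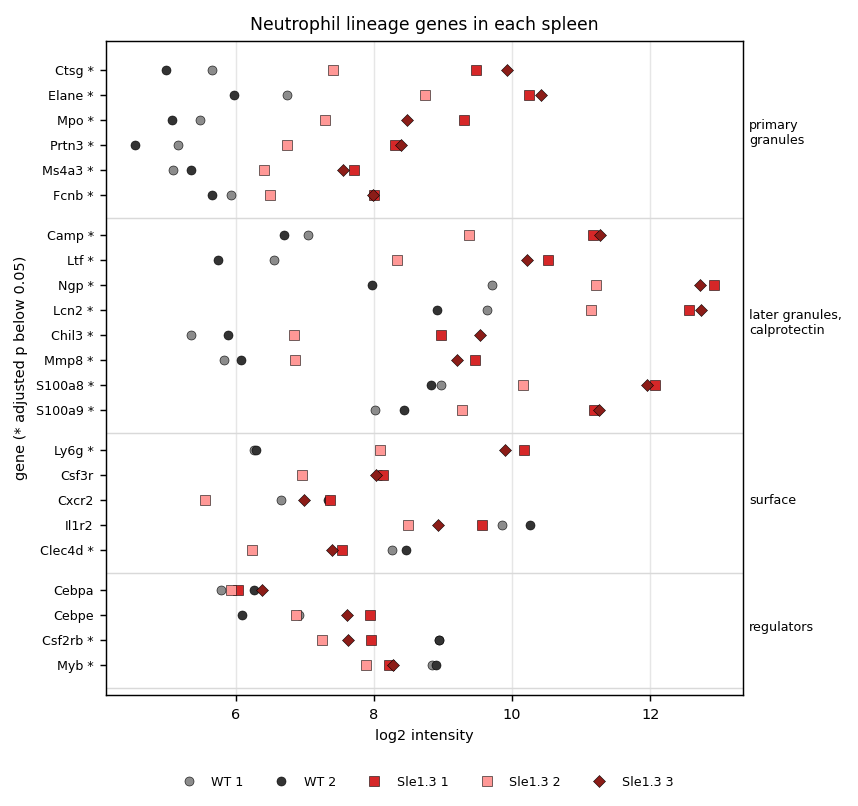
Log2 intensity (horizontal axis) of neutrophil lineage genes in each of the 2 WT and 3 Sle1.3 spleens. Each point is 1 mouse, and a star marks genes with adjusted p below 0.05 in limma. Granule genes and Ly6g lie to the right in all Sle1.3 mice, with Sle1.3 replicate 2 nearest to WT, while Csf3r and Cxcr2 overlap between groups and Clec4d lies to the left.

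Surface genes of neutrophils split. Ly6g, the membrane protein by which mouse neutrophils are usually stained, was 6.26 and 6.30 in WT and 10.18, 8.09 and 9.90 in Sle1.3, and rose by 3.11 (SE 0.49, adjusted p = 0.0086, limma). Siglece, an inhibitory sialic acid receptor, rose by 1.35. Csf3r, the receptor for granulocyte colony-stimulating factor, was 8.08 and 8.10 in WT and 8.13, 6.97 and 8.03 in Sle1.3, so the groups overlapped. Its difference was -0.38 (SE 0.31, adjusted p = 0.45). Cxcr2, the chemokine receptor that draws mature neutrophils into the blood, overlapped too, at 6.66 and 7.33 in WT and 7.36, 5.56 and 6.99 in Sle1.3 (-0.36, SE 0.44). Il1r2, a decoy receptor for interleukin-1, was below both WT mice in all 3 Sle1.3 mice without passing (-1.06, adjusted p = 0.052). Clec4d, a C-type lectin of myeloid cells, fell by 1.31. In the surface and migration list as a whole 2 of 15 rose and 1 fell, with a median of -0.05.

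Of 18 tested myeloid progenitor regulators none rose and 2 fell with all mice, against 1 higher and 5 lower without Sle1.3 replicate 3 and 2 higher and 1 lower without replicate 2. The 2 that fell were Csf2rb, the shared receptor chain for interleukin-3, interleukin-5 and GM-CSF (8.94 and 8.95 in WT, 7.95, 7.25 and 7.62 in Sle1.3, difference -1.34), and Myb, a transcription factor of progenitors (-0.74). Cebpe, which drives secondary granule genes, was 6.92 and 6.09 in WT and 7.95, 6.87 and 7.62 in Sle1.3, with overlapping groups (0.97, SE 0.33, adjusted p = 0.1). Cebpa, Gfi1 and Spi1 were at 0.09, -0.05 and -0.43, none past the threshold. Cd34, a surface protein of progenitors, was at 0.78 and did not pass.

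The promoters of the granule genes can be read beside these values. RefSeq promoter windows of 300 bases (250 before to 50 after the annotated start, GRCm38.p6) were found for 11830 tested genes and for 30 tested genes of the granule lists. The motif TTNNGNAA, the core of sites bound by C/EBP factors, was on either strand of 17 of those 30 windows (56.7%) against 32.4% of all windows. GAGGAAG, an Ets motif that fits PU.1, the product of Spi1, was in 12 of 30 (40.0%) against 13.4%. A match describes letters only and says nothing of binding. Ngp and Ltf, chosen after matches were seen, are shown for the 250 bases before their starts, with TTNNGNAA matches in capitals. The Ngp window is chr9:110419558-110419807 and the Ltf window chr9:111019042-111019291, both on the plus strand.

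Ngp: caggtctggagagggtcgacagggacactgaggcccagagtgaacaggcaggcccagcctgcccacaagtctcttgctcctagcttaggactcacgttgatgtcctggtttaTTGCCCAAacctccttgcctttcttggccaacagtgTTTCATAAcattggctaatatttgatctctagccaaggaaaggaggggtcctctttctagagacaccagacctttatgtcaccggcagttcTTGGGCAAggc

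Ltf: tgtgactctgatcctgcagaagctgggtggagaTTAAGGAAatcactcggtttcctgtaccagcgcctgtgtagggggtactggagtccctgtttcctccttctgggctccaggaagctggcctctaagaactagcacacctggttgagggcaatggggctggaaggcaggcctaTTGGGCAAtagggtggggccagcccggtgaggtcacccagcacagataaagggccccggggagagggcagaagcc

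The nearest match to the start began at position -11 in Ngp and at -75 in Ltf. The windows of Camp, Ctsg, Elane and Mpo held no TTNNGNAA.

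Granulocytes other than neutrophils moved in part. Among 8 eosinophil genes 3 rose and 1 fell. Ear6, a ribonuclease of eosinophil granules, was 5.14 and 5.24 in WT and 8.16, 6.82 and 9.03 in Sle1.3 (2.81, SE 0.48). Prg2, major basic protein, rose by 1.72 and Epx, eosinophil peroxidase, by 1.37. Il5ra, the receptor for the eosinophil growth factor interleukin-5, went the other way, from 7.35 and 7.49 in WT to 5.76, 6.10 and 5.78 in Sle1.3 (-1.54, SE 0.19). It is also expressed on subsets of B cells. Granule genes and the receptor of this lineage were thus on opposite sides, and without Sle1.3 replicate 2 the count was 5 higher and 1 lower, and 1 and 1 with the trend and robust prior. Of 10 basophil and mast cell genes Prss34, a basophil protease, rose by 1.93. Mcpt8, which marks basophils, was 4.88 and 4.56 in WT and 7.44, 5.33 and 7.97 in Sle1.3 and just missed the threshold (2.20, SE 0.59, adjusted p = 0.0502).

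Among 20 monocyte genes 5 rose and none fell, and 8 rose without Sle1.3 replicate 2. Fcgr4, an activating receptor for IgG2 immune complexes, was 6.25 and 6.91 in WT and 9.41, 8.68 and 9.68 in Sle1.3, a 6.40-fold difference (2.68, SE 0.30, adjusted p = 0.00348, limma). Cd300e, an activating receptor of monocytes, rose by 1.78, Ms4a6d by 1.72, and the C-type lectin genes Clec4a3 and Clec4a1 by 1.46 and 1.06. Genes shared by most monocytes did not follow: Csf1r was at -0.12, Ccr2 at 0.44 and Cd14 at -0.30. Of 40 chemokine and chemokine receptor genes 3 rose and 4 fell, and Ccl19, which organises T cell zones, was among those that rose (1.09). The 3 chains of C1q, which opens the classical complement pathway and is made by macrophages, rose together. C1qb was 7.90 and 8.53 in WT and 9.82, 9.56 and 10.33 in Sle1.3 (1.68), with C1qc at 1.37 and C1qa at 1.10. Serping1, the C1 inhibitor, rose by 0.81, while Cd55 and Cr1l, which both restrain the C3 convertase on cell surfaces, fell by 1.03 and 0.88. No gene passed among 13 of red pulp macrophages and iron recycling, such as Spic (0.10) and Vcam1 (0.05), or among 17 scavenger receptors and lectins, such as Cd5l (0.70) and Siglec1 (0.67).

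Platelet genes were partly higher. Ppbp, the precursor of a neutrophil-attracting platelet chemokine, was 8.16 and 8.84 in WT and 10.54, 9.84 and 10.52 in Sle1.3 (1.80, SE 0.27), and Pf4, Tubb1 and Gp9 rose by 0.98, 0.91 and 0.81. Thbs1, thrombospondin, which macrophages also make, fell by 1.90. With 4 of 17 higher and 1 lower the list rested partly on Sle1.3 replicate 1, without which 1 gene was higher. Red cell precursor genes mostly did not pass: Ermap, a membrane protein of red cells, rose by 1.06 (1 of 19 membrane and haem genes) and Lmo2, a blood stem cell factor, by 0.77 (1 of 17 regulators and globins). Without Sle1.3 replicate 2 3 and 5 rose. Car1, carbonic anhydrase of red cells, was at 1.42 with a wide spread (9.15 and 7.96 in WT, 11.07, 9.06 and 9.80 in Sle1.3), and Alas2, which starts haem synthesis there, was at -0.04.

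Of 35 tested mitosis and spindle genes 26 rose and none fell, 34 lay above both WT mice in all 3 Sle1.3 mice, and the median difference was 1.03 against 0.02 over all genes. Mki67, a marker of cycling cells, was 8.42 and 8.12 in WT and 10.17, 9.49 and 10.18 in Sle1.3, a 3.21-fold difference (1.68, SE 0.24). Ccna2, the cyclin of S phase and early mitosis, rose by 1.67, the spindle checkpoint kinase gene Bub1 by 1.55 and Prc1, which bundles microtubules of the central spindle, by 1.51. Top2a, which untangles sister chromatids, rose by 1.5, Kif11, the motor that separates spindle poles, by 1.48 and Cdk1, the mitotic kinase, by 1.34. The list medians were 1.23, 0.80 and 1.11 in Sle1.3 replicates 1 to 3, a narrower range than that of the granule lists. Members that did not pass ranged from Ndc80 (0.11) to Kif15 (0.87) and included Aurka (0.61) and Cdc20 (0.63).

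Of 38 tested genes of DNA replication and S phase 8 rose and 1 fell, with a median of 0.40, and 5 rose without Sle1.3 replicate 1. Rrm2, the regulated subunit of ribonucleotide reductase, was 7.01 and 7.12 in WT and 8.51, 8.11 and 8.63 in Sle1.3 (1.35, SE 0.20), and Tyms, thymidylate synthase, rose by 1.19. Esco2 (1.21), Cdc6 (1.12), Rfc4 (1.02) and Chek1 (0.98) rose as well. Cdt1, which loads the replicative helicase in G1 and is destroyed in S phase, fell by 0.79. The helicase subunits themselves did not pass, with Mcm2 at 0.63 and Mcm4 at 0.12, nor did Pcna (-0.14). Whether the 2 lists differ from each other was not tested. Replication-dependent histone genes, grouped by name after values were seen, gave 8 higher and 0 lower of 24 tested, and 14 higher without Sle1.3 replicate 3. The linker histone genes H1f1 and H1f5 rose by 1.76 and 1.64, and the core histone genes H2bc3, H2ac4 and H4c6 by 1.57, 1.48 and 1.19.

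Mitotic genes are known to share promoter elements, the cell cycle homology region (CHR) and CCAAT boxes, which hold them silent in resting cells and switch them on late in the cycle. The CHR letters searched, TTTGAA or TTCGAA on either strand, were in 25 of 30 windows of tested mitosis and spindle genes (83.3%), against 14.7% of all 11830 windows and 6 of 31 windows of DNA replication genes (19.4%). CCAAT on either strand was in 19 of the 30 (63.3%), in 19 of the 31 replication windows (61.3%) and in 37.7% of all. Kif11 and Prc1, picked from the called genes once their matches were known, are printed from 150 bases before to 30 after the start, with both motifs in capitals. The Kif11 window is chr19:37376232-37376411 and the Prc1 window chr7:80294301-80294480, both on the plus strand.

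Kif11: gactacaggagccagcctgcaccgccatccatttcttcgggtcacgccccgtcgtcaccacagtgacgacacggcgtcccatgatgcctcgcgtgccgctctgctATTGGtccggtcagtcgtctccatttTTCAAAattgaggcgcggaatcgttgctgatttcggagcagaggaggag

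Prc1: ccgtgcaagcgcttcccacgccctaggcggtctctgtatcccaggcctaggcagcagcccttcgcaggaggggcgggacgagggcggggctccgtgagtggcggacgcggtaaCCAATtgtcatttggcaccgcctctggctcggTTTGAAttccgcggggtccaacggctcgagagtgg

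In Kif11 the CCAAT box (read as ATTGG) began at -45 and the CHR at -19, and in Prc1 they began at -37 and -5. These are the letters of the reference, not a measure of factor binding in these spleens.

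B cell genes gave a mixed picture. None of 19 B lineage genes passed, and their median was -0.16, with Ebf1, a factor that specifies the lineage, at -0.62 and the signalling kinase gene Btk at -0.55. In replicates 1 and 2 alone 4 of them were lower, Ebf1 and Btk included, and with each array set to the same median 4 were lower. Gcsam, a signalling adaptor of germinal centre B cells, was 6.33 and 6.24 in WT and 8.33, 7.51 and 7.83 in Sle1.3 (1.61, SE 0.24), Mybl1, a transcription factor of the dividing germinal centre zone, rose by 1.35 and Nuggc by 0.95. Some other germinal centre genes were near 0, such as Bcl6 (-0.08), S1pr2 (0.23) and Fas (-0.02). The list counted 3 higher and 3 lower of 17, with a median of 0.12, and reached down to -1.42 for Cd86. Il21, the cytokine of T follicular helper cells that supports germinal centres, was dim but separate, at 4.41 and 4.42 in WT and 5.90, 5.48 and 6.10 in Sle1.3 (1.41, SE 0.21). Its receptor gene Il21r fell, from 10.38 and 10.29 in WT to 9.16, 9.39 and 9.20 in Sle1.3 (-1.08).

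Among 18 plasma cell genes Mzb1, an endoplasmic reticulum chaperone of antibody-secreting cells, rose by 1.03 and Creld2, another chaperone of that compartment, by 0.87, while Ell2, an elongation factor used for secretory immunoglobulin messages, fell by 0.87. Without Sle1.3 replicate 1 the count was 1 higher and 1 lower. Sdf2l1, a chaperone partner, rose by 0.86, the only call among 23 endoplasmic reticulum stress and secretion genes. Jchain (0.45), Xbp1 (0.48) and Sdc1 (0.12) did not pass. Of 11 immunoglobulin entries the kappa variable segments Igkv8-30 (1.25) and Igkv4-91 (1.05) rose, and Ighg3 was at 0.17. Fcrl5, a receptor of marginal zone and innate-like B cells, rose by 1.13. Fcer2a (CD23), the IgE receptor of follicular B cells, fell by 1.01, and Myof, a membrane repair protein that the follicular and marginal zone list also holds, was 6.54 and 7.61 in WT and 5.17, 5.12 and 5.46 in Sle1.3 (-1.83). That list counted 1 higher and 3 lower of 20 tested, with a median of -0.27, and 1 higher and 5 lower without Sle1.3 replicate 3.

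The genes with the largest falls outside the sex chromosomes had varied roles. Cpm, carboxypeptidase M, which trims basic residues from peptides at the cell surface, was 9.80 and 9.64 in WT and 7.10, 7.75 and 6.92 in Sle1.3, 5.52-fold lower (-2.46, SE 0.25). Plk2, a stress-induced kinase, was 7.10 and 7.62 in WT and 4.94, 5.11 and 5.01 in Sle1.3 (-2.34, SE 0.20, adjusted p = 0.000938, limma), the smallest p among called autosomal genes. Sytl3, a regulator of vesicle secretion, fell by 2.19. Ramp3, which tunes the receptors for adrenomedullin, was 8.10 and 8.32 in WT and 5.92, 6.48 and 6.14 in Sle1.3 (-2.03). For Plk2 the 3 Sle1.3 mice lay close together, and for all 4 genes each Sle1.3 mouse was below both WT mice. Among genes with little known of them, Ssxb10 (3.91 and 3.23 in WT, 6.42, 5.70 and 6.42 in Sle1.3) and G530011O06Rik (6.28 and 5.54 in WT, 8.61, 8.02 and 8.84 in Sle1.3) rose by 2.61 and 2.58. Both lie on chromosome X, where the sex difference between the groups bears directly on the values. Ssxb10, Il21, Epx, H2ac4, Mir301b, Try5, Olfr1158, Mcpt8, Mir297b and Xist lay below the intensity filter (4.93) in both WT mice. They were thus tested only through their level in Sle1.3, and the sizes of their differences are uncertain. For Prtn3 the WT mean (4.86) was below the filter too, with 5.17 and 4.55 in WT replicates 1 and 2.

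Some nutrient transporters fell. Slc1a5, the glutamine transporter, was 9.88 and 9.78 in WT and 7.66, 7.97 and 7.86 in Sle1.3, 4.01-fold lower (-2.0, SE 0.18). Of 21 amino acid transport and mTORC1 genes 4 fell and none rose, 17 lay below both WT mice in all 3 Sle1.3 mice, and 11 fell without Sle1.3 replicate 3. Slc7a11, the cystine importer, fell by 1.35, Slc7a5, which imports leucine, by 0.96 and Slc7a1, for arginine and lysine, by 0.87. Mtor (-0.52) and Rptor (-0.53) did not pass. In the glycolysis list, Pdk1, which holds pyruvate out of the mitochondrion, fell by 1.23 and Slc2a1, the glucose transporter, by 0.89, with 17 of 19 members not past the threshold. Of 23 phosphodiesterase and cyclic AMP genes 6 fell and none rose, becoming 9 without Sle1.3 replicate 3, or 4 if replicate 1 is left out instead. Beside Ramp3, they included the phosphodiesterase genes Pde3b (9.58 and 9.68 in WT, 7.62, 7.97 and 7.33 in Sle1.3, -1.99), Pde8a (-1.24) and Pde7b (-0.92), and the cyclic AMP-responsive repressor gene Crem (-1.08).

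Of 19 genes of naive and recirculating lymphocytes 6 fell and none rose, with a median of -0.66. The count was 10 without Sle1.3 replicate 3. Satb1, a chromatin organiser of T cells, was 11.04 and 11.21 in WT and 9.49, 10.23 and 9.71 in Sle1.3 (-1.32). S1pr1, which guides lymphocytes out of the spleen, fell by 1.08, Ccr9, a gut-homing receptor, by 1.19, Lef1, a factor of naive T cells, by 0.92 and Foxp1, which keeps T cells quiescent, by 0.75. Ccr7, which brings naive cells to T cell zones, was 12.19 and 11.99 in WT and 11.27, 11.60 and 11.40 in Sle1.3 without passing (-0.66). T lineage genes as such were little changed, with Thy1 (-0.94) called among 19, Cd4 at 0.25 and Cd8a at -0.16.

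Of 21 regulatory T cell and interleukin-10 genes 4 fell and none rose (7 fell without Sle1.3 replicate 3). Tgfb1, the suppressive cytokine, was 9.88 and 9.68 in WT and 8.42, 8.46 and 8.27 in Sle1.3, 2.63-fold lower (-1.40, SE 0.18). Lrrc32, which holds latent TGF-beta on the cell surface, fell by 1.06, Il2ra, the high-affinity interleukin-2 receptor chain, by 1.14 and Tnfrsf18 by 0.95. Foxp3, the defining factor, was at -0.51 and did not pass, and Ctla4 was at 0.64.

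Of 25 natural killer cell receptors and factors 7 fell and none rose (10 without Sle1.3 replicate 2 or replicate 3). Klrc1, the inhibitory receptor NKG2A, was 7.66 and 8.09 in WT and 5.95, 6.58 and 5.80 in Sle1.3, 3.40-fold lower (-1.76, SE 0.25). Il12rb2, through which interleukin-12 acts, fell by 1.58, Il2rb, a receptor chain that interleukin-15 shares with interleukin-2, by 1.13, Klra8, a Ly49 receptor, by 1.12, and Klrk1, the activating receptor NKG2D, by 1.06. The lineage markers Ncr1 and Eomes fell by 1.04 and 1.03, whereas Klrb1c was at -0.13 with overlapping groups. Of 18 cytotoxic granule and effector genes 4 fell: Serpinb9 (-1.18), which shields the killer from its own granzyme, Fasl (-1.03), and the chemokine genes Xcl1 (-0.85) and Ccl5 (-0.75). The lytic proteins did not pass, with Prf1 at -0.27, Gzmb at -0.57 and Gzma at 0.34.

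Of 15 costimulatory ligands and receptors 3 fell and none rose. Cd86, which engages CD28 on T cells, was 10.13 and 10.25 in WT and 8.61, 9.04 and 8.66 in Sle1.3 (-1.42, SE 0.20). Cd80 fell by 0.96, and Havcr2 by 1.29 from WT mice that stood far apart (7.80 and 9.09). The count was 5 without Sle1.3 replicate 3. Among 15 MHC class II presentation genes none passed, with Marchf1, which removes MHC from the surface, at 0.57, the invariant chain gene Cd74 at -0.35 and H2-Ab1 at -0.29. None of 14 MHC class I loading and immunoproteasome genes passed, with Psmb9 at 0.69. Cd209a, a lectin of a dendritic cell subset, fell by 1.63 and was the only call in the comparison of all mice among 27 conventional dendritic cell genes.

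Of 25 plasmacytoid dendritic cell genes 6 fell and none rose, which became 2 when Sle1.3 replicate 1 or replicate 2 was left out, and 9 when replicate 3 was. Spib, a transcription factor of these cells and of B cells, was 10.86 and 10.40 in WT and 9.12, 9.11 and 9.03 in Sle1.3 (-1.55, SE 0.19). Sla2, an adaptor that dampens receptor signalling, fell by 0.96 and Tex2 by 0.87. Siglech, a surface lectin that marks these cells, fell by 0.78 and Tlr9, the sensor of unmethylated CpG DNA, by 0.86. Tcf4, which encodes their master factor E2-2, was 9.02 and 8.80 in WT and 8.67, 8.63 and 9.06 in Sle1.3, with overlapping groups (-0.12, SE 0.20). Bst2 (0.11) and Irf7 (-0.15) did not pass. In the Toll-like receptor list 4 of 25 fell, Tlr9, Irf5 (-1.04), Irak3 (-0.76) and Traf6 (-0.73), against 1 without Sle1.3 replicate 1, 2 without replicate 2 and 7 without replicate 3. Tlr7, the single-stranded RNA sensor, was at 0.34.

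Of 8 tested genes of the B cell survival factor BAFF and its signalling 4 fell: Tnfrsf13c, the receptor itself (10.71 and 10.47 in WT, 9.16, 9.69 and 10.07 in Sle1.3, -0.95), Map3k14, the kinase NIK (-0.81), and its effectors Relb (-0.76) and Nfkb2 (-0.74). None of these passed without Sle1.3 replicate 1, where the differences kept their sign. Tnfsf13b, which encodes BAFF, was at 0.58 and did not pass. Bcl2l11, the pro-apoptotic BIM, fell by 1.09, the only call among 14 Bcl2 family genes.

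**Figure D2:**
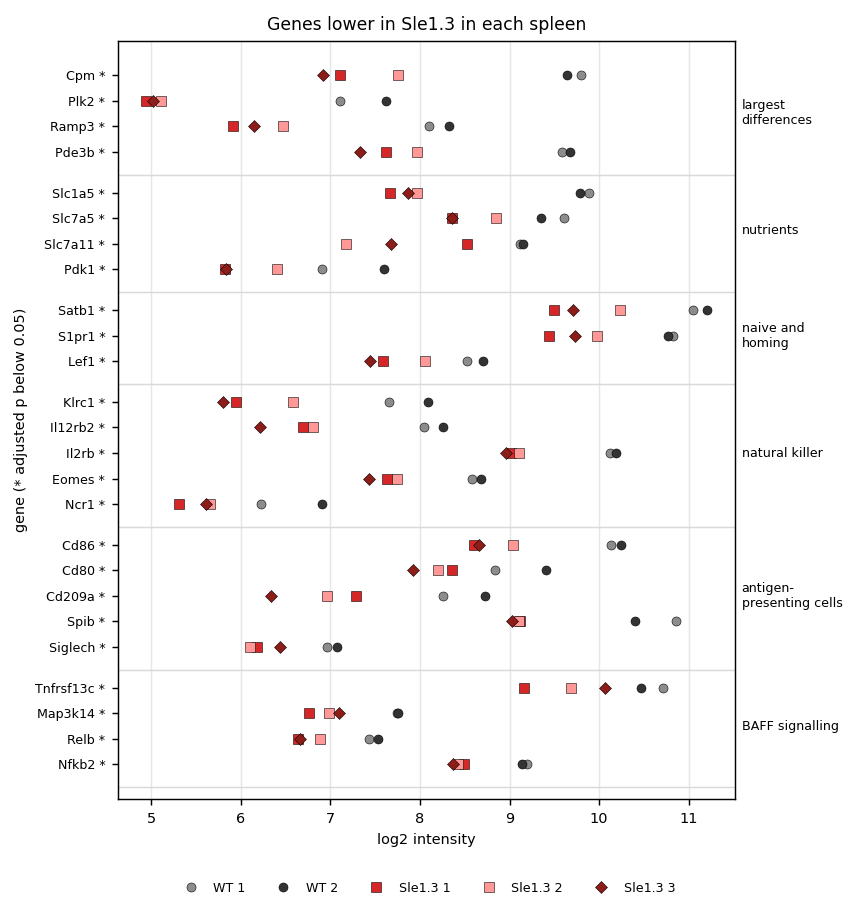
Log2 intensity (horizontal axis) of genes that fell, by role, with 1 point for each of the 2 WT and 3 Sle1.3 spleens. All genes shown have adjusted p below 0.05 in limma, and every Sle1.3 point lies to the left of both WT points.

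Genes that respond within minutes to stimulation, or to the digestion of a tissue, did not move as a block. Of 27, Jun rose by 0.82 and 5 fell, among them Plk2, the dual-specificity phosphatase gene Dusp2 (-1.20) and the orphan receptor genes Nr4a2 (-0.80) and Nr4a3 (-0.75). Fos (0.47), Egr1 (0.18) and Hspa1a (-0.25) did not pass. Leaving out Sle1.3 replicate 1 gave 2 lower and 0 higher, and leaving out Sle1.3 replicate 3 gave 9 and 2. Nlrp3, the inflammasome sensor of myeloid cells, was 8.01 and 8.39 in WT and 7.11, 5.86 and 6.11 in Sle1.3 (-1.84, SE 0.33), while Il1b was at -0.22. Dnase1l3, a secreted nuclease that digests chromatin of dying cells, fell by 0.87, the only call among 20 genes of cytosolic nucleic acid sensing and clearance.

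Interferon-stimulated genes, often high in blood of lupus patients, were barely called. Oas1a, an activator of RNase L, was 5.94 and 5.68 in WT and 6.58, 6.65 and 6.82 in Sle1.3 (0.87, SE 0.19, adjusted p = 0.0234, limma), 1 of 37 tested. The list median was 0.24 against 0.02 over all genes, with 14 of 37 above both WT mice in all 3 Sle1.3 mice, and 4 members were called without Sle1.3 replicate 3. Ifit3, a sensor-like antiviral protein, was 5.33 and 6.03 in WT and 6.70, 6.36 and 7.63 in Sle1.3 (1.22, SE 0.34, adjusted p = 0.0602). Cxcl10, also induced by interferon gamma, was at -0.57. None of 10 interferon gamma-induced GTPases passed, with Gbp7 at 0.67, and none of 9 tested Ifi200 cluster genes, which lie on distal chromosome 1, with Ifi208 at 0.58. SLAM family receptors, encoded on distal chromosome 1 and linked to Sle1 in earlier work, gave no call among 11 with all mice, and 1 higher (Slamf6) and 1 lower (Slamf8) in replicates 1 and 2 alone. Slamf6 came nearest (9.85 and 9.67 in WT, 10.33, 10.38 and 10.74 in Sle1.3, 0.73, adjusted p = 0.0511) and Slamf8 was at -0.76. Of 28 tested genes in the list made for the distal chromosome 1 region of Sle1, Fcgr4 rose and Cd55 and Cr1l fell, as given above. Positions of the listed genes were not checked against the bounds of that interval, so the count describes the list only. None of 17 cholesterol synthesis genes passed (Cyp51 at -0.64), nor of 22 stromal and endothelial genes (Acta2 at -0.66), and of 10 exocrine pancreas genes Try5 rose by 1.00.

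**Figure D3:**
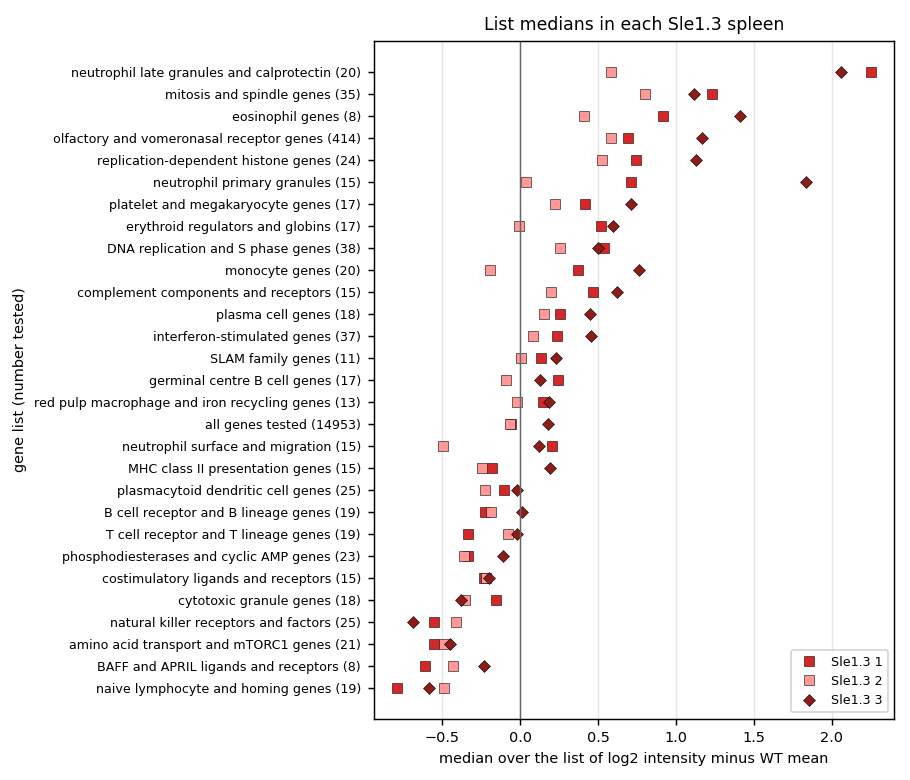
Median over each gene list of the log2 intensity minus the WT mean (horizontal axis) for each Sle1.3 spleen, with the number of genes tested in parentheses. Late granule genes lie at 2.25, 0.59 and 2.06, mitosis genes at 1.23, 0.80 and 1.11 and naive lymphocyte genes at -0.79, -0.49 and -0.58 in replicates 1 to 3, against medians of -0.06, -0.07 and 0.18 over all genes.

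Some probe sets of the array sit on microRNA precursors. They read RNA of the precursor locus, not the mature microRNA, and 120 passed the filter on dim genes, with 6 higher and 4 lower (12 and 11 without Sle1.3 replicate 3, but 10 and 2 when replicate 1 was omitted). Mature sequences of all 10 called precursors were found in RefSeq (GRCm38.p6). They are shown 5′ to 3′ with the seed, bases 2 to 8, in capitals, for Mir142, Mir18 and the Mir680 genes, which differed most, and for Mir23a, Mir30e and Mir7b as further examples. Among 16 mature sequences there were 16 seeds, and the seed of miR-680 was the 1 found at more than 1 called precursor.

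miR-142a-5p: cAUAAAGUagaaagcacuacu

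miR-142a-3p: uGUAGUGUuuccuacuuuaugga

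miR-18a-5p: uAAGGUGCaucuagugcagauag

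miR-23a-3p: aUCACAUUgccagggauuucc

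miR-30e-5p: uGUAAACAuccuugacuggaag

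miR-680: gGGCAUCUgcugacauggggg

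miR-7b-5p: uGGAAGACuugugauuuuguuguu

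Mir142, a precursor specific to blood cells (its 5p arm at chr11:87756867-87756887, plus strand), was 7.33 and 7.64 in WT and 5.02, 5.39 and 4.81 in Sle1.3, 5.33-fold lower (-2.41, SE 0.22, adjusted p = 0.00103, limma). Mir18, of the Mir17 cluster that supports lymphocyte growth (5p arm at chr14:115043867-115043889, plus strand), was 6.89 and 7.42 in WT and 4.79, 5.29 and 5.03 in Sle1.3 (-2.12). Mir17hg, the host transcript of that cluster, fell by 1.15, and Mir23a and Mir30e by 0.90 and 0.78. Groups were fully apart for each. In the other direction, Mir680-1 on chromosome 6 and Mir680-2 on chromosome X, whose mature sequence is the same, rose by 2.03 and 1.78, and Mir301b and Mir7b by 1.47 and 1.44. Whether their probes tell the copies apart was not checked. Small nucleolar RNA genes gave 4 lower and none higher of 52, led by Snord118 (-1.19), Snord37 (-0.97), Snord14e (-0.94) and Snora75 (-0.89), and 10 lower without Sle1.3 replicate 3.

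Calls along the chromosomes were also counted, with olfactory and vomeronasal genes left out. In windows of 25 neighbouring tested genes the median number called was 1 and the 99th percentile 6, over 14003 overlapping windows. The fullest window lay on chromosome 13 from Cdc14b to Zfp729b, with 9 lower and none higher of 25. It holds a cluster of KRAB zinc finger genes, which encode repressors that silence transposable elements and some genes. Rsl1, known for repressing genes of male liver, was 8.15 and 8.11 in WT and 6.79, 6.68 and 6.46 in Sle1.3, 2.80-fold lower (-1.49, SE 0.18). Zfp456 was 7.65 and 7.93 in WT and 6.23, 6.40 and 5.66 in Sle1.3 (-1.70, SE 0.24). Zfp87, Zfp748, Zfp953, Zfp729b and Zfp595 fell by 1.11, 1.09, 1.03, 0.93 and 0.88, and Zfp729a, the next gene, by 0.92. Members between them did not all follow: Zfp457 was at 0.38 and Zfp759 at -0.01. Probes of such related genes can catch each other's transcripts, so the genes are not independent measurements. Over the whole array, 31 of 276 genes named Zfp fell (11.2%, against 4.26% of all genes) and 2 rose, and 20 fell when Sle1.3 replicate 1 was left out, 79 when it was replicate 3. Chromosome 1 had 6.58% and chromosome 7 had 9.94% of its tested genes called, against 7.57% of all, and the chromosome 7 share was 6.75% (6.51% over all) without olfactory and vomeronasal genes.

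**Figure D4:**
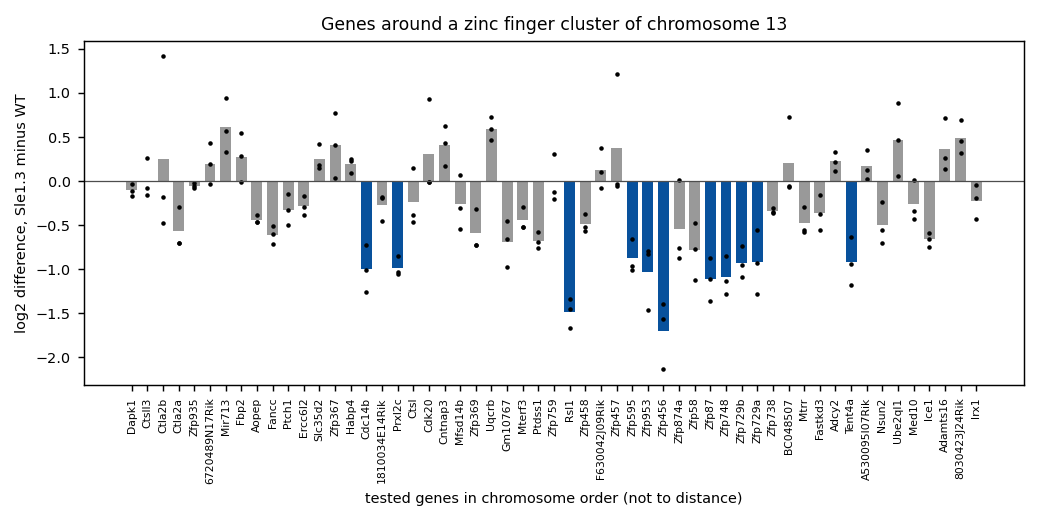
Log2 difference, Sle1.3 minus WT (vertical axis), of neighbouring tested genes on chromosome 13, in gene order without regard to distance. Bars are group differences, blue where adjusted p is below 0.05 in limma, and each dot is 1 Sle1.3 mouse minus the WT mean. Blue bars cluster from Rsl1 (-1.49) to Zfp729a (-0.92), with Zfp456 the deepest (-1.70).

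Olfactory and vomeronasal receptor genes, which sense odours and pheromones in the nose, made up 186 of the 495 higher calls (37.6%). They were grouped after values were seen. Olfr1158 was 4.67 and 4.06 in WT and 6.18, 6.32 and 6.94 in Sle1.3 (2.12, SE 0.27), and the pseudogene Vmn2r-ps104 was 5.66 and 4.86 in WT and 7.27, 7.32 and 8.18 in Sle1.3 (2.33). Of 1194 measured, 414 passed the filter on dim genes, which favours genes that are high in the larger group. Without the filter, 99.9% of the 1194 had a difference above 0, against 63.3% of all 19938 genes, and the median was 0.71 against 0.16. No such gene was called lower. Medians of the 414 were 0.69, 0.59 and 1.17 in Sle1.3 replicates 1 to 3, so they were not confined to the array with the high floor.

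Intensity went with direction across all genes. Among the genes up to the 25th percentile of mean intensity over tested genes 227 were higher and 13 lower, and above the 75th percentile 76 were higher and 297 lower. The interquartile range of log2 values was 2.77 and 2.97 on the WT arrays and 2.57, 2.56 and 2.43 on the Sle1.3 arrays, so the WT arrays had the wider spread. After quantile normalization, which evens out such spread, 503 genes were higher and 657 lower, and 156 of the 414 olfactory and vomeronasal genes were still higher. The part of the array scale in these dim differences was not tested. Leaving these genes out, 309 of 14539 genes were higher (2.13%).

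**Figure D5:**
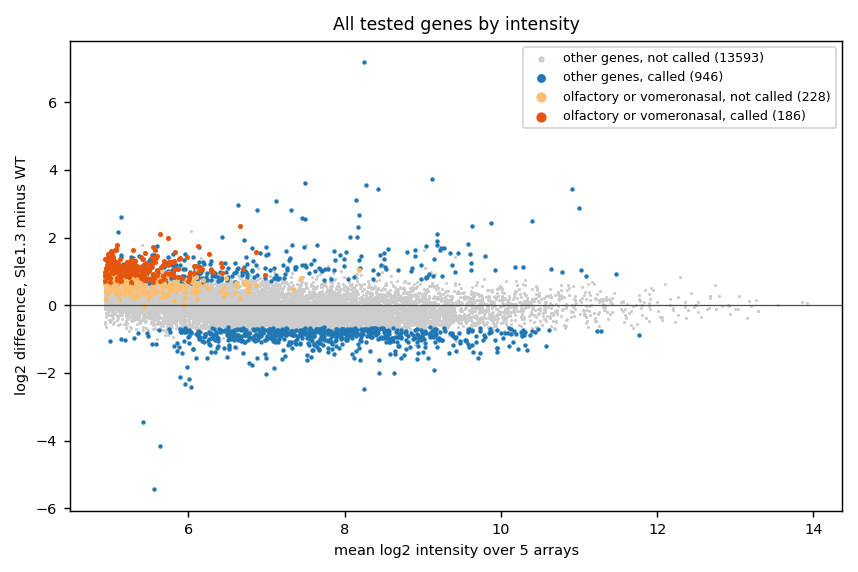
Log2 difference, Sle1.3 minus WT (vertical axis), against mean log2 intensity over the 5 arrays (horizontal axis) for all 14953 tested genes. Blue and dark orange points have adjusted p below 0.05 in limma, and light and dark orange points are the 414 olfactory and vomeronasal genes, which gather at low intensity and above 0.

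Sle1.3 replicate 3 stood above both other Sle1.3 mice in 10392 genes and below both in 2088. The gap exceeded 1 on the log2 scale upward in 233 genes and downward in 3. Largest was Mir297b (4.94 and 5.34 in the others, 8.05 in replicate 3), followed by Unc45bos, Snord73b, Olfr319, Olfr767 and Wnt6, with gaps of 1.74 to 1.91. Lowest relative to the others were Macrod2 (8.69 and 9.42 against 6.97), Trim13 (6.45 and 6.64 against 5.26) and Klra3 (7.21 and 7.48 against 6.03), then Smpd2, 2410004B18Rik and Usp17ld. With all 3 Sle1.3 mice none of these genes was called between the groups. Without replicate 3, Macrod2, Mir297b and Usp17ld were higher and Trim13 and Smpd2 lower. Every gene called with all mice was also called without this array.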

How the data were processed

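RNA of whole spleen suspensions was labelled with an Ambion whole-transcript kit and hybridised to 1 array per mouse, per the labels' protocols. The deposited values are linear intensities; per the submitters' processing notes the authors used RMA and Affymetrix Expression Console, versions not given in the sources used here. Of 35556 probe sets, 21789 are listed with 1 gene, 1621 with several and 12146 with none in the platform annotation, and only the first were named, 21698 of them matched to RefSeq by Entrez ID with no change of symbol. Each of 19938 genes was read from whichever of its probe sets had the highest mean, and 14953 with a mean log2 intensity over all 5 arrays above the 25th percentile (4.93) were tested.

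Log2 values were fitted with limma 3.58.1 (R 4.3.3, lmFit and eBayes) by group on the 5 arrays, with Benjamini-Hochberg adjustment over all tested genes and a threshold of 0.05. With 2 and 3 mice the fit has 3 residual degrees of freedom, so precision is limited by the number of arrays. The labels give 1 mouse per array and do not say that equal replicate numbers mark a litter or day. Numbers were therefore not taken to pair mice. Deviations of same-numbered arrays from their group means correlated at -0.07 for number 1 and 0.21 for number 2. Sle1.3 replicate 3, which has no WT mouse of its number, gave 0.22 with WT replicate 1. With 2 WT mice the deviations of one mirror those of the other, so these values can neither show nor exclude a pairing. The script was tested on simulated data.

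The members and gene lists were chosen with earlier results of these data known. Genes named are the 15 called with the largest difference in each direction, up to 5 called per list (or the 2 of smallest p where none was called), sex-linked genes, cell type markers, Tcf4, and the 6 highest and 6 lowest in Sle1.3 replicate 3 relative to the others. Further genes, the families of microRNA precursors, small nucleolar RNAs, histones, zinc fingers and receptors of smell, and the promoter motifs were chosen after their values were seen. Alternatives covered scaling, the floor, the filter on dim genes, probe set choice, terms for replicate number and labelled sex, array weights, eBayes settings and each array left out. Some cell type markers are not reported here, and the arrays of the other genotypes were not analysed here.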

Additional observations from a re-analysis of the deposited data

Results flagged for a closer look

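Probe sets with no gene in the platform annotation were outside the comparison. When all probe sets above the same intensity level were tested with limma, 518 of these were higher in Sle1.3 and 559 lower at an adjusted p below 0.05. Of the 7930 that entered, 13.6% were called, against 8.07% of the probe sets with a listed gene. Their identity is not known here, so no direction is drawn from them.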

How the results depend on the processing

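Against 495 higher and 637 lower genes, centring each array on its median gave 1956 lower, testing only genes above the median intensity 297 higher, and no filter on dim genes 261 lower. Array weights gave 941 higher and 1902 lower, and eBayes with trend and robust 985 lower. A term for labelled sex gave 3426 higher and 1182 lower, and by construction it rests the genotype difference on Sle1.3 replicate 3 against WT. The replicate block gave 1118 higher and 2381 lower, with the pairing of equal numbers not shown. By construction its differences are those of Sle1.3 replicates 1 and 2 against WT, because replicate 3 has no WT mouse of its number. Leaving out each array in turn gave 1 to 769 higher and 3 to 1707 lower, the low ends without WT replicate 2 and the high ends without Sle1.3 replicate 3. The cause of these shifts was not tested. The counts stayed within 1.5 times under quantile normalization, a common floor and the mean of a gene's probe sets. The common floor (3.71) lies below the filter on dim genes (4.93), so it can change few tested values. It therefore cannot show what the higher floor of Sle1.3 replicate 3 does to the counts.

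Of 127 named genes that were called, 127 remained called with array weights, a common floor, the replicate block and without Sle1.3 replicate 3, 126 with centring, 119 with labelled sex, 116 with quantile normalization, 115 with trend and robust, 101 and 119 without Sle1.3 replicates 1 and 2, and 87 with no filter on dim genes. The replicate block and the fit without Sle1.3 replicate 3 rest on the same differences, so they are not separate checks. The common floor left most tested values as they were. The calls lost under quantile normalization were Cd80, Clec4d, Cr1l, Crem, Dnase1l3, Fasl, Irak3, Lef1, Slc7a11, Slc7a5 and Traf6. Those lost with labelled sex were Clec4d, Creld2, Havcr2, Myb, Sla2, Tex2, Tlr9 and Tnfrsf13c, with centring Creld2, and with the mean of a gene's probe sets Top2a. Without Sle1.3 replicate 2, Ccl5, Ier2, Myb, Nfkb2, Sla2, Tex2, Tlr9 and Traf6 lost their calls, and these were also lost without replicate 1, together with Clec4a1, Creld2, Dnase1l3, Gp9, Irak3, Jun, Lef1, Map3k14, Nr4a2, Pde7b, Pf4, Relb, Rfc4, Sdf2l1, Slc2a1, Slc7a5, Tnfrsf13c and Tubb1. Without WT replicate 1 and WT replicate 2, 10 and 4 remained. No called gene changed sign under any alternative in which it was tested. Low intensities limit what can be said of dim genes, and 2 WT mice limit all else.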
